A study of Mus musculus with 2 samples.

Results

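The 7 keratins Krt7, Krt8, Krt19, Krt20, Krt5, Krt14 and Krt17 were followed across 2 spatial transcriptomic libraries of mouse pancreatic tumors. They were taken by symbol from the 19465 features counted in both libraries, a choice made with earlier results of these data known. One library carried the label KPC-shZEB1 and the other KPC-shV. Both came from orthotopic allografts, in which cells of a KPC line, derived from a pancreatic tumor of a genetically engineered mouse with a Pdx-1 Cre, were placed in the pancreas of a recipient mouse. KPC-shZEB1 cells carried a short hairpin RNA against the transcription factor Zeb1 and KPC-shV cells the vector control, both introduced by lentivirus. According to the study's methods the mice also received gemcitabine, a treatment that the sample labels do not name. Each library came from 1 injected line. The protocol names 2 tumors for each label without saying how they were divided over the sections, and host stroma, vessels, immune cells and normal pancreas remained in the tissue.

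Keratins are the intermediate filament proteins of epithelial cells, and each filament pairs a type I with a type II keratin. Krt7 and Krt8 are type II and Krt19 and Krt20 type I keratins of simple, single-layered epithelium. Pancreatic ducts and the ductal tumors that resemble them are known for Krt7 and Krt19, Krt8 is also present in acinar cells, and Krt20 is best known from intestinal and gastric epithelium. Krt5 and Krt14 pair in the basal layer of stratified epithelium, and Krt17 appears in basal and injured epithelium. In pancreatic cancer the basal keratins are used as marks of a squamous, or basal-like, state. The type I genes lie together on chromosome 11 of mm10, Krt20 at chr11:99428403-99438150, Krt19 at chr11:100140810-100148665, Krt14 at chr11:100203162-100207548 and Krt17 at chr11:100256217-100261029. The type II genes lie on chromosome 15, Krt7 at chr15:101411043-101430313, Krt5 at chr15:101707070-101712898 and Krt8 at chr15:101996698-102004482.

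The library labelled KPC-shZEB1 held 2220 spots and 140493626 unique molecular identifiers (UMIs, each standing for 1 captured probe molecule), and the library labelled KPC-shV held 3552 spots and 172059528 UMIs. The median spot held 59957.5 and 52544.5 UMIs, respectively. A spot is a small tissue region that can hold several cells. Spots were put into zones by the percentage of their UMIs from 19 acinar enzyme genes, with tumor-side spots under 5%, border spots from 5% to 40% and acinar spots above 40%. Spot positions were not used here, so the border is one of composition and not of place. The libraries differed most in normal pancreas: acinar spots were 30.0% of spots under the shZEB1 label and 2.67% under shV. Levels are therefore given as UMIs per 1000000 non-acinar UMIs (CPM), with 95% intervals that cover counting error only. With 1 library per label there is no replicate and no test, and every difference below is one between these libraries. Zeb1 itself went against the label, at 15.4 CPM in tumor-side spots labelled KPC-shZEB1 and 12.7 CPM in those labelled KPC-shV (log2 ratio 0.28, 95% interval 0.18 to 0.38). Stromal cells also express Zeb1, so a spot does not give the level in the tumor cells alone.

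In tumor-side spots the simple keratins as a group were at nearly the same level in both libraries. Krt19 and Krt20 were higher in the library labelled KPC-shZEB1, and Krt7 was lower by an amount common among all features. Krt7 stood at 2503 CPM under the shZEB1 label and at 2918 CPM under shV. Krt8 stood at 1072 and 1111 CPM. These 2 type II keratins therefore lay 1.17-fold and 1.04-fold lower under the shZEB1 label (log2 ratios -0.22 and -0.05). Krt19, the partner that ducts are known for, stood at 1124 and 914 CPM, a log2 ratio of 0.30 (0.29 to 0.31). Krt20 stood at 609.5 and 420 CPM, a log2 ratio of 0.54 (0.52 to 0.55), which is 1.45-fold higher under the shZEB1 label. The summed level of the 4 was 5309 and 5363 CPM (log2 ratio -0.01), beside a median of -0.01 over the 16256 features with at least 200 UMIs.

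**Figure D1:**
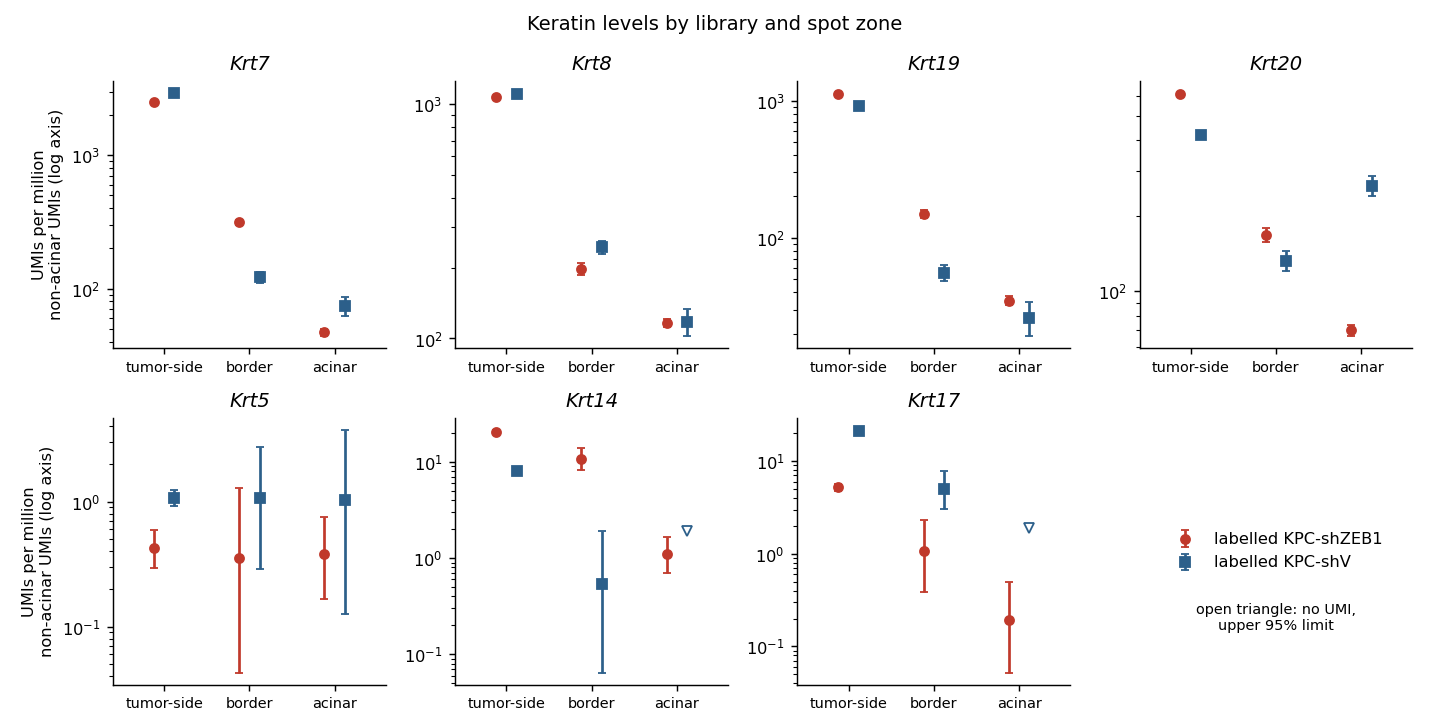
Levels of the 7 keratins (UMIs per 1000000 non-acinar UMIs, log axis) in tumor-side, border and acinar spots of the library labelled KPC-shZEB1 (red circles) and the one labelled KPC-shV (blue squares). Bars are 95% counting intervals and open triangles upper limits where no UMI was counted; Krt20 of acinar spots labelled KPC-shV lies at 262.6, above its border level of 132.

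The keratin makeup moved with these levels. Of all UMIs of the 7 keratins in tumor-side spots, Krt7 held 46.9% under the shZEB1 label and 54.1% under shV. Krt19 held 21.1% and 16.9%, and Krt20 held 11.4% and 7.78%. Krt8 kept a like share, 20.1% and 20.6%. Probes for different genes capture with different efficiency, so these shares describe how the makeup differs between libraries and not which keratin is the most abundant protein or transcript.

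Stroma differed between the libraries beside these values. The 8 fibroblast genes summed to 8077 CPM in tumor-side spots labelled KPC-shZEB1 and 6459 CPM in those labelled KPC-shV, and 3 of the 8 were at least 2-fold higher under the shZEB1 label, beside 4.5% of all features tested. Of the 6 macrophage genes none differed 2-fold, and they summed to 2400 and 1539 CPM. The 6 lymphocyte genes summed to 102 and 18.6 CPM, and 6 of 6 were at least 2-fold higher under shZEB1. Mesothelium also makes Krt7, Krt8 and Krt19. Its 6 listed genes summed to 285 and 282 CPM, nearly all of it Msln (273 and 273 CPM), which pancreatic tumors are also known to express. Wt1 was at 4.90 and 4.01 CPM, Gpm6a at 2.93 and 1.12 CPM, and the other 3 genes were between 1.03 and 1.80 CPM, within the range of the genes not expected here. Gpm6a alone of the 6 was at least 2-fold higher. Across deep tumor-side spots the summed list correlated with the simple keratins at 0.52 to 0.64 under the shZEB1 label and 0.37 to 0.50 under shV. The part of these other cells in the keratin differences was not tested, and in bulk spots fewer cells of a type and less RNA per cell cannot be told apart. Per UMI of the epithelial genes Epcam and Cdh1, a scale chosen after the data were seen, Krt7 was at 1.92 and 1.93, Krt19 at 0.862 and 0.603, and Krt20 at 0.467 and 0.277. On that scale Krt8 was at 0.822 and 0.733, so its direction turned, and the simple sum was at 4.07 and 3.54. The 2 genes of the scale themselves differed in opposite directions, Epcam at 878 and 1114 CPM and Cdh1 at 426 and 401 CPM. Values on this scale therefore depend on which of the 2 genes is used, and no direction is read from the turn.

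The promoters of the simple keratins were compared because these genes varied together across spots, as described further below. That variation also went with the epithelial and fibroblast genes of a spot, so no shared regulation is read from it. RefSeq (GRCm38.p6) gave windows from 250 bases before to 50 after the start for 5 of the 7 genes; Krt17 and Krt19 had no entry. The E-box CAGGTG, read on both strands as CAGGTG or CACCTG, is the type of site that Zeb1 is known to bind, and TATAAA is the core of a TATA box. Below, 80 bases are printed 5′ to 3′ on the strand of the gene, with these letters in capitals, and the basal keratin Krt5 is shown for contrast.
Krt7 (chr15:101412322-101412401, plus strand): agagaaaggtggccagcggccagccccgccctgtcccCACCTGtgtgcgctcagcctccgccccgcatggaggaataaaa
Krt8 (chr15:102004411-102004490, minus strand): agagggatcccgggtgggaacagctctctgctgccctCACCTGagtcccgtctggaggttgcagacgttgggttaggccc
Krt20 (chr11:99438154-99438233, minus strand): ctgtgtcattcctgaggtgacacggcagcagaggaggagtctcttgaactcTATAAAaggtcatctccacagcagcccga
Krt5 (chr15:101712991-101713070, minus strand): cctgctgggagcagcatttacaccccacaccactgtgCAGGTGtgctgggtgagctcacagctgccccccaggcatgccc
The E-box letters stood 44 bases before the RefSeq start of Krt7, 111 before that of Krt8 and 128 before that of Krt5, and were not in the windows of Krt20 and Krt14. Of all 32851 promoter windows of this length, 20.2% held CAGGTG on either strand and 13.6% held TATAAA. The TATA letters, matched on either strand, also stood in the Krt8 window, outside the printed stretch. There 2 overlapping matches, 1 on each strand, begin 3 bases and 1 base before the start. The RefSeq starts of Krt7, Krt8 and Krt14 lie inside the gene bounds of GENCODE, so other starts of these genes are not covered. A match is a description of letters and not a measured site.

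The basal keratins were sparse, and 2 of them differed between the libraries in opposite directions. Krt14 counted 1689 UMIs, or 20.5 CPM, in tumor-side spots labelled KPC-shZEB1 and 1312 UMIs, or 8.02 CPM, in those labelled KPC-shV. That is a log2 ratio of 1.36 (1.25 to 1.46), or 2.56-fold higher under the shZEB1 label. Krt17 counted 427 UMIs, or 5.19 CPM, against 3434 UMIs, or 21.0 CPM. That is a log2 ratio of -2.02 (-2.16 to -1.87), or 4.05-fold lower. Krt5, the usual partner of Krt14, counted 35 and 175 UMIs, or 0.425 and 1.07 CPM. Its log2 ratio was -1.33 (-1.90 to -0.80), but both levels lay within the range of 16 genes not expected in pancreas or tumor, such as the photoreceptor gene Pde6a, which spanned 0.401 to 2.50 CPM and 0.440 to 2.00 CPM. Krt5 was thus not above background, and no difference is read from it.

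Since Krt14 and Krt17 ran in opposite directions, the basal sum hid both: 26.1 and 30.1 CPM, a log2 ratio of -0.20 (-0.28 to -0.13). Without Krt17, the leading gene of the sum over both libraries together, the ratio turned to 1.20. At least 2-fold higher under the shZEB1 label was 1 of the 7 keratins, Krt14, beside 4.5% of all features tested. At least 2-fold lower was Krt17, beside 1.94% of all features. Krt5 also passed 2-fold by its ratio but is not counted, since it lay at background. The basal keratins held 0.490% and 0.558% of the UMIs of the 7 keratins, a trace in both libraries. Between the libraries, hypoxia genes lay on the same side as Krt17: the 7 tested summed to 964 and 1811 CPM, and 4 of them were at least 2-fold lower under the shZEB1 label, among them Vegfa (39.8 and 167 CPM). Within the libraries they did not run together in both. In the 337 deep tumor-side spots highest in hypoxia genes under the shZEB1 label, Krt17 was at 3.12 CPM, against 6.30 CPM in the 337 lowest, and under shV it was at 27.1 CPM in the 656 highest and 22.6 CPM in the 656 lowest. Their part in the Krt17 difference was not tested.

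**Figure D2:**
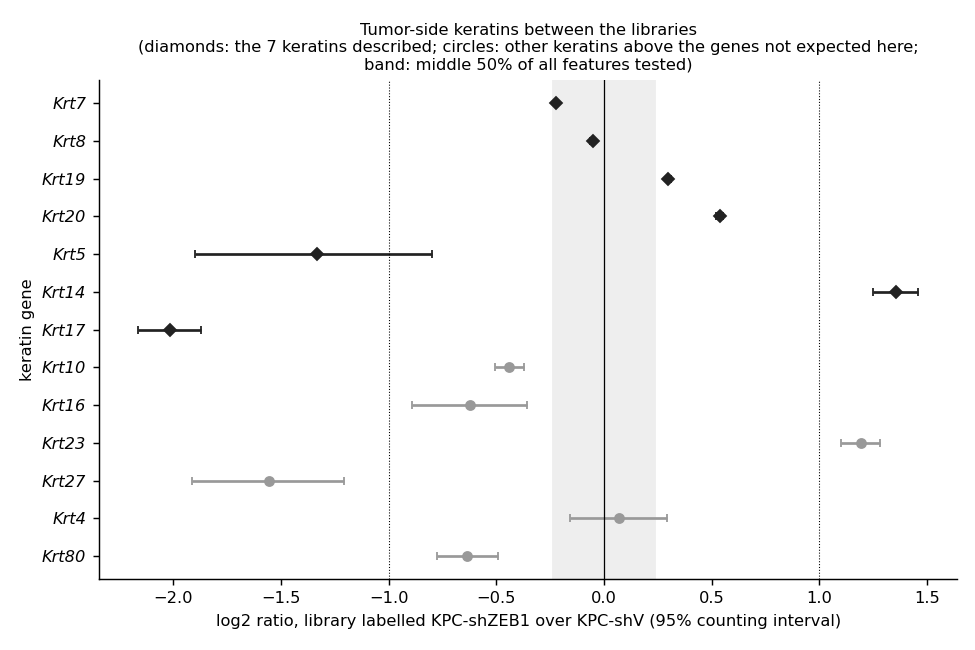
Log2 ratio of tumor-side levels, library labelled KPC-shZEB1 over KPC-shV, for the 7 keratins (black diamonds) and the 6 other keratins above the genes not expected in this tissue in at least 1 library (grey circles), with 95% counting intervals. Dotted lines mark 2-fold and the grey band the middle 50% of all features; Krt14 lies at 1.36 and Krt17 at -2.02, on opposite sides.

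Of the 41 other keratin genes in the feature list, 35 were at or below the highest of the 16 genes not expected here in both libraries. Krt18, the usual type I partner of Krt8, was not in the feature list. Krt10, Krt23, Krt80 and Krt4 were above that level in both libraries. Krt23, a simple-type keratin, was at 26.2 CPM under the shZEB1 label and 11.5 CPM under shV, 2.29-fold higher. Krt10, a keratin of differentiated skin layers, was at 28.7 and 38.9 CPM. Krt80 was at 6.54 and 10.1 CPM. Krt27 was lower under the shZEB1 label (0.972 and 2.85 CPM) and Krt90 higher (2.08 and 1.03 CPM), both near the background genes.

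The genes that accompany keratins in stratified epithelium were read beside them. Of the squamous program, 15 of 17 listed genes had at least 200 UMIs, and 0 were at least 2-fold higher and 1 at least 2-fold lower under the shZEB1 label (4.5% and 1.94% over all features), the cadherin-like Fat2 (0.960 and 4.35 CPM). Trp63, the master regulator of basal epithelium and a defining gene of this list, was at 1.32 and 1.19 CPM, within the range of the background genes. Other genes of the list lay far above that range, among them Il1rn (623 and 989 CPM), Ivl (57.9 and 62.8 CPM) and Serpinb5 (34.2 and 32.8 CPM). The list summed to 980 and 1354 CPM, most of it Il1rn. Across tumor-side spots with at least 20000 UMIs the summed list correlated with Krt7 at 0.71 and 0.62. With the sparse basal keratins it gave 0.18 and -0.03 for Krt14, 0.15 and 0.06 for Krt17, and 0.03 and 0.08 for Krt5. Among genes of desmosomes and hemidesmosomes, the junctions on which keratin filaments anchor, 1 of 17 tested was at least 2-fold higher and 4 were at least 2-fold lower, beside the same background. Among the 4 were the plakophilin Pkp1 and the laminin chains Lama3 and Lamb3. Lama3 stood at 151 CPM under the shZEB1 label and 492 CPM under shV. Lamb3 stood at 88.6 and 245 CPM, so both laminin chains lay on the same side as Krt17. The gene that was higher was the desmosomal cadherin Dsc2, at 22.6 and 8.42 CPM. Of 5 genes of cornified skin tested, 0 were past 2-fold.

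Genes of glandular epithelium were read in the same way. Of 16 genes of gastric and intestinal, or classical, epithelium, 5 were at least 2-fold higher under the shZEB1 label and 1 was lower, beside 4.5% and 1.94% of all features. Those with the largest ratios were the mucin Muc6 (14.7 and 1.53 CPM), the disulfide isomerase Agr2 (42.4 and 7.86 CPM) and the mucin Muc5ac, which was lower (0.887 and 4.60 CPM). The trefoil peptide Tff2 stood at 287 and 70.1 CPM, but it was far higher in acinar spots, at 7994 and 3255 CPM. The acinar genes themselves summed to 2457 and 402 CPM in tumor-side spots. The part of normal pancreas in the Tff2 difference was not tested. Of 14 duct genes, the chloride channel Cftr was higher (21.5 and 8.84 CPM) and the tight junction gene Cldn4 lower (33.1 and 112 CPM). These lists are set beside the keratins as counts, and nothing particular to a list is read from them.

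Spot by spot, the simple keratins covered the tumor-side tissue, and at 5000 UMIs per spot the basal ones were found in few spots. With every spot thinned to 5000 UMIs, any simple keratin was found in 94.8% of tumor-side spots under the shZEB1 label and in 98.5% under shV. All 4 were found together in 63.2% and 66.7%. Krt14 was found in 8.66% and 3.58% of spots, and Krt17 in 1.81% and 10.2%. In acinar spots at the same depth, which hold little tumor, Krt14 was found in 2 of 665 and 0 of 95. Krt17 was found in 0 of 665 and 0 of 95, where a limit set at 3 spots is a share of 0.451% and 3.16%. A basal keratin without any simple keratin was found in 0 of 1385 spots, where 3 spots are a share of 0.217%, and in 1 of 3042. Without thinning, any basal keratin was found in 48.8% of tumor-side spots labelled KPC-shZEB1 and in 53.9% of those labelled KPC-shV. Krt14 was found in 37.7% and 21.9%, and Krt17 in 17.8% and 42.5%, at a median depth of 59204 and 56117 UMIs.

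The 5% of tumor-side spots with the most Krt14 UMIs held 47.2% of all Krt14 UMIs under the shZEB1 label and 53.7% under shV. For Krt17 that share was 55.5% and 34.0%. For Krt7 it was 19.0% and 12.3%. A share near 5% would mean an even spread, so Krt14 and Krt17 were the more unevenly placed, although genes with few UMIs per spot reach high shares by counting alone. The UMIs were not scaled to the depth of a spot here, so differences in depth enter these shares too. Krt7 also varied within the shZEB1-labelled tissue, where the middle 50% of spots lay between 784 and 3367 CPM, against 1684 and 3703 CPM under shV.

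Across tumor-side spots with at least 20000 UMIs, 1348 under the shZEB1 label and 2624 under shV, the 4 simple keratins varied together. Pearson's r of log2(CPM + 1) between pairs of them ran from 0.75 (Krt8 with Krt20) to 0.85 (Krt7 with Krt8) under the shZEB1 label and from 0.62 to 0.75 under shV. Spots of one library share its depth and tissue, so these values are a description. Between the basal keratins, Krt14 with Krt17 gave 0.02 and 0.07, and Krt5 with Krt14 gave 0.01 and 0.00, at counts too sparse for a weak correlation to be read.

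**Figure D3:**
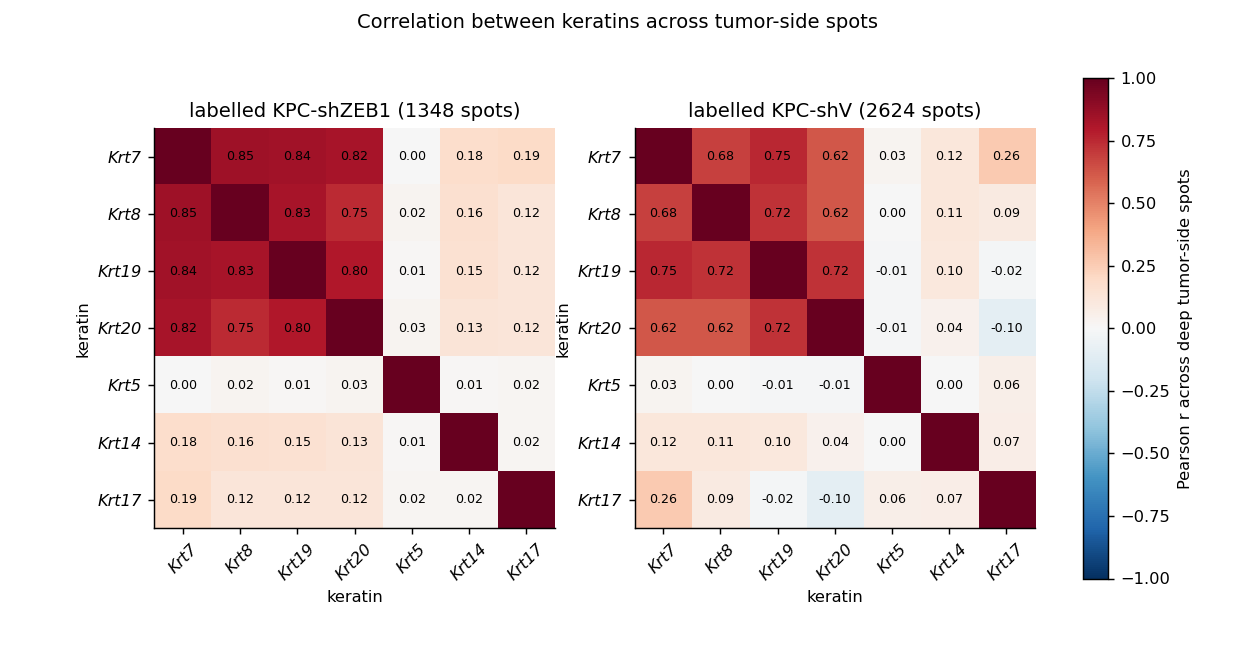
Pearson's r of log2(CPM + 1) between each pair of the 7 keratins across tumor-side spots with at least 20000 UMIs, 1348 spots labelled KPC-shZEB1 (left) and 2624 labelled KPC-shV (right). The 4 simple keratins form a block of high values, 0.75 to 0.85 on the left, while pairs with a basal keratin, which rest on few UMIs, lie between -0.10 and 0.26.

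The genes whose pattern was most like a simple keratin, by the lower r of the 2 libraries among 9353 genes, were other epithelial genes. For Krt7 they were Lad1 (0.82 and 0.77), a basement membrane anchoring filament gene, Krt19, and the protease inhibitor Spint2 (0.78 and 0.75). For Krt8 they were Krt19, the annexin Anxa2 (0.84 and 0.70) and Krt7. For Krt19 they were Anxa2, Krt7 and Spint2, and for Krt20 they were Krt19, the tetraspanin Tspan8 (0.71 and 0.69) and Anxa2. For Krt5 no gene passed 0.08 in both libraries.

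For Krt17 the most alike were Litaf (0.28 and 0.38), the ligand Wnt7a (0.26 and 0.30) and S100a11 (0.26 and 0.26), all weak. The 68 spots richest in Krt17 under the shZEB1 label and the 132 under shV, the top 5% of deep tumor-side spots, were therefore set against spots without a Krt17 UMI, as a description that the choice of spots partly fixes. A rich spot held as few as 1 Krt17 UMI under the shZEB1 label and at least 3 under shV, so the sets are not alike. Laminin chains were higher in the Krt17-rich spots of both libraries. Lama3 was at 360 CPM in rich spots and 120 CPM in spots without under the shZEB1 label, and at 995 and 337 CPM under shV. Lamb3 was 2.21-fold and 2.39-fold higher. The plakophilin Pkp1 was 3.23-fold and 3.26-fold higher. Over all features tested, 0.494% and 1.03% were at least 2-fold higher in these spots, and of 16 desmosome and hemidesmosome genes tested 4 were in each library, Pkp1, Lama3 and Lamb3 among them in both. Trp63 counted 5 and 8 UMIs in the rich spots, 1.08 and 1.15 CPM, which is the background level. Krt20 ran the other way, at 504 CPM in Krt17-rich spots and 621 CPM in spots without under the shZEB1 label, and at 284 and 516 CPM under shV. In the shV-labelled library, 3 of 7 hypoxia genes tested were at least 2-fold higher in the Krt17-rich spots, Car9, Slc2a1 and Vegfa, while 0 of 7 were in the other library. Markers of other cell types moved with Krt17 too. Of 12 acinar genes tested under shV, 8 were at least 2-fold higher in the Krt17-rich spots, while of 13 under the shZEB1 label 3 were at least 2-fold lower. Islet genes were at least 2-fold lower in both, 6 of 6 and 4 of 4, and 6 of 14 gastric and intestinal genes were under shV, against 1 of 14. The share of all features at least 2-fold lower in Krt17-rich spots was not counted, so nothing particular to the lower genes is read. The part of these cells was not tested.

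For Krt14 the most alike were Gatad1 (0.45 and 0.28), a GATA zinc finger gene, the cell cycle kinase Cdk6 (0.37 and 0.19) and Mfge8 (0.35 and 0.19), a secreted glycoprotein. Gatad1 and Cdk6 are neighbours on chromosome 5, at chr5:3632932-3657185 and chr5:3341485-3531008. Of the 10 genes most like Krt14, 5 lay within 1000000 bases of Gatad1, with Gatad1 itself counted. That region, singled out after its values were seen, holds 14 features. It was chosen by likeness to Krt14 across these same spots of both libraries. The counts below are therefore partly fixed by that choice, in both libraries, and are a description. In the 68 spots richest in Krt14 under the shZEB1 label, 14 of the 14 were higher than in the 830 spots without a Krt14 UMI, and 12 of the 12 with at least 200 UMIs were at least 2-fold higher, from 2.04-fold to 3.20-fold. In the 132 Krt14-rich spots labelled KPC-shV, set against 1968 spots without, 14 of 14 were again higher and 12 of 12 at least 2-fold, from 2.11-fold to 4.07-fold. Over all features tested, 1.61% and 2.24% were at least 2-fold higher in such spots. A Krt14-rich spot held at least 3 Krt14 UMIs under the shZEB1 label and as few as 1 under shV.

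Within that region Gatad1 stood at 1442 CPM in Krt14-rich spots and 464 CPM in spots without under the shZEB1 label, and at 896 and 245 CPM under shV. Cdk6 stood at 1279 and 448 CPM, and at 646 and 194 CPM. Krit1, which is known for its role in vessels, stood at 452 and 167 CPM, and at 273 and 84.1 CPM. The sterol enzyme gene Cyp51 was 2.99-fold and 3.29-fold higher. Mterf1b, at the far end of the run, was 2.29-fold and 2.40-fold higher. In spots richest in Krt17, the same 14 features were all lower than in spots without Krt17 UMIs, with a median fold of 0.714 and 0.752 over those tested. The median log2 ratio over all features was also below 0 there, at -0.02 and -0.08. The share of all features that were lower is not given here, so nothing particular to these 14 is read. Of the Krt14-rich spots, 2 of 68 and 7 of 132 were also rich in Krt17 (2.94% and 5.30%), where each set holds 5% of all deep tumor-side spots, so no separation is read from the overlap. Between the libraries these neighbours lay on the same side as Krt14, with tumor-side log2 ratios under the shZEB1 label of 1.19 for Gatad1 and 1.45 for Cdk6, and 0.29 for Akap9. Gene copy number was not measured.

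**Figure D4:**
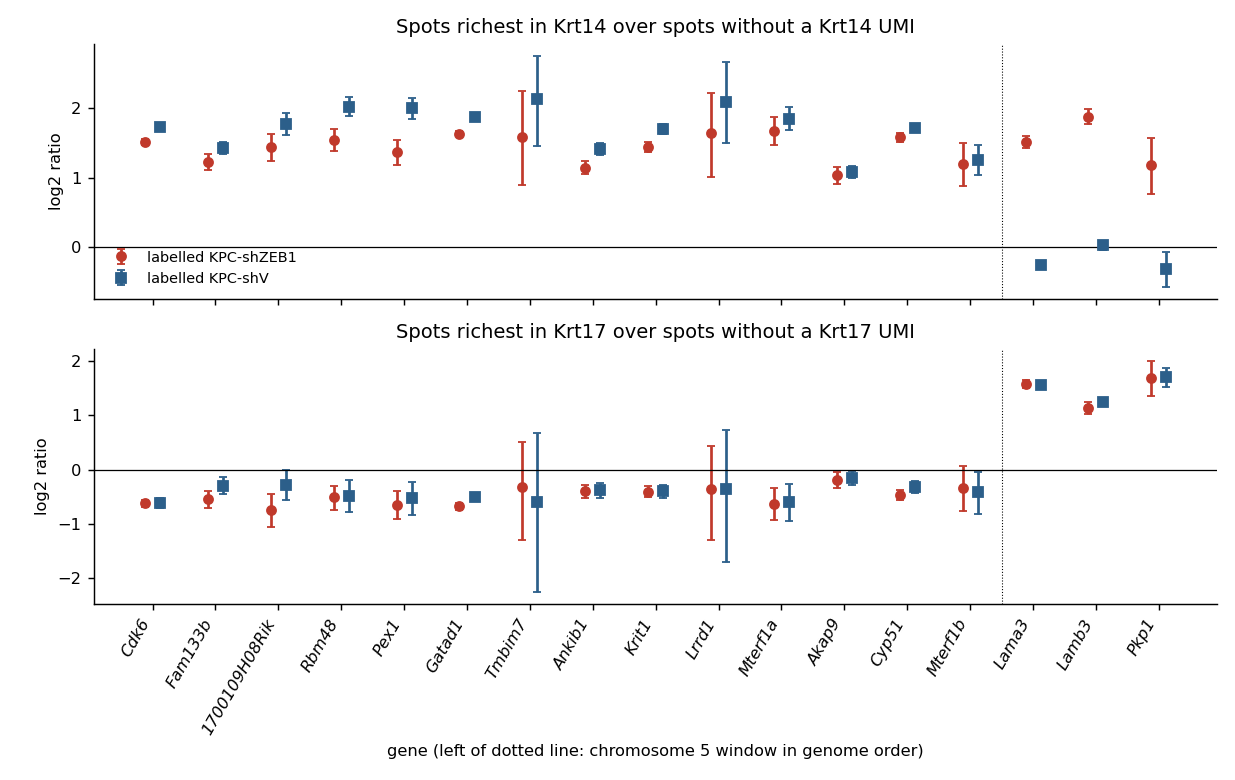
Log2 ratio of levels in the deep tumor-side spots richest in Krt14 (top) or Krt17 (bottom) over spots without a UMI of that keratin, for 14 neighbouring chromosome 5 genes in genome order and for Lama3, Lamb3 and Pkp1 (right of the dotted line), in the library labelled KPC-shZEB1 (red circles) and KPC-shV (blue squares), with 95% counting intervals. All 14 neighbours lie above 0 in Krt14-rich spots and below 0 in Krt17-rich spots of both libraries, while Lama3, Lamb3 and Pkp1 lie above 0 in Krt17-rich spots of both. The median log2 ratio over all features, not drawn, was also below 0 in Krt17-rich spots of both libraries.

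Markers of other cell types moved with Krt14 too. Under the shZEB1 label 6 of 6 lymphocyte and 6 of 6 islet genes tested were at least 2-fold lower in Krt14-rich spots, and 0 of 13 acinar genes. Under shV 0 of 4 lymphocyte, 4 of 4 islet and 10 of 13 acinar genes were. The share of all features at least 2-fold lower in these spots was not counted, so nothing particular to these genes is read. The part of these cells in the Krt14 pattern was not tested. The laminin chain Lamb3 was at 226 CPM in Krt14-rich spots and 61.5 CPM in spots without Krt14 under the shZEB1 label, and at 240 and 237 CPM under shV. Epcam was higher in both, 2.00-fold and 1.54-fold. Mki67, a proliferation marker, was at 499 and 316 CPM under the shZEB1 label and at 407 and 290 CPM under shV. In the 337 deep tumor-side spots highest in proliferation genes under the shZEB1 label, Krt14 was at 33.3 CPM, against 8.95 CPM in the 337 lowest. In the 656 highest and 656 lowest under shV it was at 11.6 and 5.77 CPM. Krt17 ran opposite, at 3.53 against 7.14 CPM and at 16.6 against 24.5 CPM.

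Toward normal pancreas, Krt7, Krt8 and Krt19 were lower in each bin of spots with more acinar UMIs, by different amounts. Krt14 under the shZEB1 label was not, at 20.2 CPM below 1% acinar UMIs and 26.7 CPM (21.7 to 32.6) at 1 to 5%. Krt7 stood at 2503 CPM in tumor-side, 314.5 in border and 46.9 in acinar spots labelled KPC-shZEB1, and at 2918, 121 and 73.7 CPM in those labelled KPC-shV. Krt19 followed it, at 1124, 149 and 34.9 CPM, and at 914, 55.3 and 25.9 CPM. Krt8 declined less, to 117 CPM in acinar spots of both libraries, and it held the largest share of keratin UMIs in shZEB1-labelled acinar spots, 43.2%. In the spots richest in acinar UMIs, 60% and above, Krt8 was at 110 CPM beside 124 CPM at 40 to 60%, while Krt7 was at 33.2 beside 60.6 CPM.

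Of the 6 keratins with enough UMIs to be tested in border against tumor-side spots, 5 were at least 2-fold lower under the shZEB1 label, beside 11.9% of all features, and 6 under shV, beside 22.9%. For Krt17 under shV this rested on the zone bounds: its log2 ratio of -2.05 turned to 0.10 with a border of 1% to 20%. It stood at 37.8 CPM (28.0 to 50.03) in spots of 1 to 5% acinar UMIs and at 20.9 CPM below 1%. The exception was Krt14 under the shZEB1 label, at 10.8 CPM in border spots (61 UMIs in 25 of 169 spots) against 20.5 CPM on the tumor side. In acinar spots 6 of 6 were at least 2-fold lower under the shZEB1 label, beside 63.2% of all features, so that count says little about keratins. Under shV 5 of 6 were, beside 44.8%, and the exception was Krt20. Krt14 and Krt17 had no UMI in the 95 acinar spots labelled KPC-shV. With a floor of 3 counts over all those spots, they were 5.15-fold and 13.5-fold lower than on the tumor side. The upper 95% limits of their log2 ratios were -2.06 and -3.45, which is a weaker bound than that floor gives.

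Border spots were not the same mixture in the 2 libraries. Their median depth was 42023 UMIs under the shZEB1 label and 17254 under shV. The 8 fibroblast genes summed to 15856 and 22997 CPM in border spots, and the 7 islet genes to 248 and 2238 CPM. The part of this mixture in the border levels was not tested. Within border spots, Krt7 was 2.59-fold and Krt19 2.70-fold higher under the shZEB1 label (log2 ratios 1.37 and 1.43), while Krt8 was 1.24-fold lower. Krt14 counted 61 UMIs there under the shZEB1 label and 2 under shV, a log2 ratio of 4.34 with an interval of 2.43 to 7.42.

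**Figure D5:**
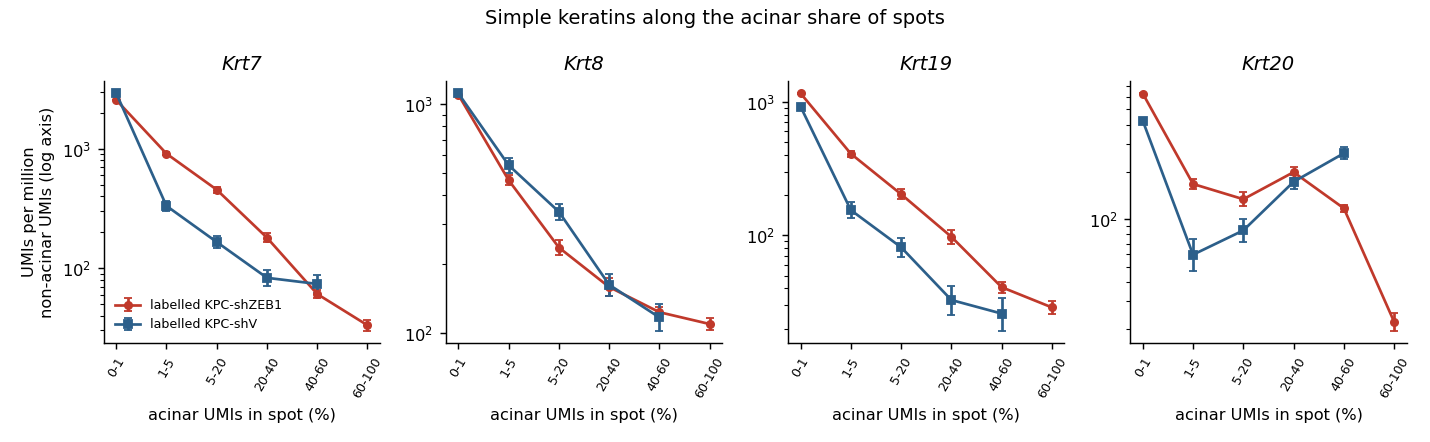
Levels of the 4 simple keratins (UMIs per 1000000 non-acinar UMIs, log axis) in spots binned by the percentage of acinar UMIs, for the library labelled KPC-shZEB1 (red circles) and KPC-shV (blue squares), with 95% counting intervals. No spot labelled KPC-shV lay at 60% or above; Krt20 is lowest at 1 to 5% under shV (59.5 CPM) and reaches 262.6 CPM at 40 to 60%.

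Krt20 did not follow the other simple keratins outside the tumor. In spots labelled KPC-shV it stood at 423 CPM below 1% acinar UMIs, 59.5 at 1 to 5%, 84.8 at 5 to 20%, 173 at 20 to 40% and 262.6 at 40 to 60%. In spots labelled KPC-shZEB1 it stood at 630 CPM, 167.5, 134, 199 and 117 in the same bins, and at 22.2 CPM at 60% and above. Both libraries thus had a second high of Krt20 in spots of mixed acinar content, the smaller one under the shZEB1 label. Under shV it was found in 92 of 95 acinar spots, so the level did not come from a few of them. Krt20 made up 54.6% of keratin UMIs in acinar spots labelled KPC-shV and 25.9% in those labelled KPC-shZEB1. In acinar spots as a whole Krt20 was 3.76-fold lower under the shZEB1 label (log2 ratio -1.91). In the bin of 40 to 60% acinar UMIs, with 351 and 95 spots, it was 2.24-fold lower (log2 ratio -1.16, -1.31 to -1.01). The 95 spots under shV had a median of 43.5% acinar UMIs, near the low end of that bin, so the bin is not a full match. At 20 to 40% Krt20 went the other way, 1.15-fold higher under the shZEB1 label (log2 ratio 0.20, 0.01 to 0.40). At 5 to 20% it was 1.58-fold higher.

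Across border and acinar spots with at least 20000 UMIs, 802 and 199, the genes most like Krt20 among 7856 were the 3 pancreatitis-associated secreted lectins, a comparison added after the values above were seen. Reg3a gave Pearson's r of 0.55 and 0.54, Reg3b 0.53 and 0.55, and Reg3g 0.50 and 0.46. The next gene, Ankrd10, gave 0.26 and 0.25. These lectins are made by acinar cells under injury and by intestinal epithelium. The same comparison for Krt8 gave Tagln2 first, at 0.28 and 0.34, so no gene stood out beside it.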

How the data were processed

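Frozen, methanol-fixed tumor sections were profiled on Visium CytAssist slides with gene probes. The authors aligned and counted the reads with Space Ranger 2.0.1 against mm10, per the submitters' processing notes. The deposited counts are whole UMIs per gene and spot, not normalized; the deposited gene and barcode lists (other) name rows and columns. The slide shared 1718 barcodes between libraries, which mark slide positions. The 7 keratins, the gene lists and the zones were chosen with earlier results of these data known.

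Here, counts were summed over spots of a zone (5% and 40% acinar UMIs) and divided by non-acinar UMIs, over 19 of the 24 listed acinar genes that the features held. Levels carry exact Poisson, ratios exact conditional binomial and shares exact Clopper-Pearson intervals at 95%. All cover counting error only. The limit printed beside a share of 0 is 3 spots over the spots of the set, which is tighter than the Clopper-Pearson limit. Ratios of at least 2-fold over features with at least 200 UMIs were counted. Named were the 7 keratins, other keratins with at least 100 UMIs past 2-fold, up to 4 list genes with the largest ratio past 2-fold, and the 3 genes most like each keratin by Pearson's r of log2(CPM + 1) with at least 10 CPM; further names were chosen after their values were seen. Spots were thinned at random to 5000 UMIs for shares, which left out 4 spots labelled KPC-shZEB1 and 185 labelled KPC-shV. No doublet caller was run. Positions are from GENCODE M21 (GRCm38) and promoters from RefSeq. Python 3.11.15, numpy 2.4.6 and scipy 1.17.1 were used. Alternatives changed the totals, the zone bounds, the weight of spots, shallow and extreme spots, the leading gene and the thinning. Some items of the gene lists are not reported here.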

Additional observations from a re-analysis of the deposited data

How the results depend on the processing

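With 1 library per label nothing here is replicated, acinar spots labelled KPC-shV numbered 95, and Krt5 stayed at background. No paired analysis was possible because each label has 1 library. The values below are log2 ratios, the library labelled KPC-shZEB1 over KPC-shV or a zone over tumor-side spots. Each of the 7 keratins except Krt8 kept its tumor-side direction under every alternative run, though none is read for Krt5, which had 6 alternatives and lay at background. Krt7 stayed within -0.34 to -0.005, so its difference nearly vanished per UMI of Epcam and Cdh1. Krt8 went from -0.05 to 0.17 per UMI of Epcam and Cdh1, a scale in which Epcam was lower and Cdh1 higher under the shZEB1 label. Krt14 stayed within 1.33 to 1.57 and Krt17 within -2.65 to -1.80. The simple sum between libraries (-0.01) became -0.0063 with median-of-ratios scaling, -0.049 with spots weighted equally, 0.018 with zone bounds of 1% and 20%, -0.023 without spots under 20000 UMIs, -0.071 without the top 5% of spots, 0.20 without Krt7 and 0.20 per UMI of Epcam and Cdh1, a scale added after the data were seen. The basal sum (-0.20) became -0.29 with equal weights, -0.52 without the top 5% of spots, 1.20 without Krt17 and 0.014 per UMI of Epcam and Cdh1. Basal per simple UMIs (-0.19) became -0.45 without the top 5% of spots and 1.01 without the leading genes. Border over tumor-side, the simple sum under the shZEB1 label (-2.68) became -3.06 with acinar UMIs in the total, -2.39 with median-of-ratios scaling, -1.81 with the other bounds, -2.92 without the top 5% and -2.45 without the leading gene. Under shV (-3.28) it became -3.67, -2.96, -2.67, -3.41 and -2.50 in the same order, -3.43 with equal weights and -3.14 without shallow spots. The basal sum of border spots under the shZEB1 label (-1.10) became -1.48 with acinar UMIs, -1.56 with equal weights and -0.12 with the other bounds. It became -1.89 without the top 5% and -1.99 without Krt14, the leading basal gene under that label. Under shV (-2.18) the basal sum of border spots became -0.28 with the other bounds and -4.39 without the top 5%. Krt17 there turned from -2.05 to 0.10 with the other bounds. Acinar over tumor-side, the simple sum under the shZEB1 label (-4.31) became -5.58 with acinar UMIs, -3.13 with median-of-ratios scaling, -4.16 with equal weights, -4.13 with the other bounds and -3.66 without the leading gene, and under shV (-3.48) it became -4.34, -3.02 and -2.59 for the first, second and last of these. The basal sum under the shZEB1 label (-3.97) became -5.24, -2.79, -3.47 with the other bounds and -3.29 without Krt14. The share of tumor-side spots with a simple and a basal keratin (10.3% and 13.7%) became 48.7% and 53.8% without thinning, 4.33% and 5.92% at 2000 UMIs, 29.3% and 36.9% at 20000 UMIs, and 1.88% and 1.91% with at least 2 UMIs of each kind. The cause of these moves was not tested.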
